A study of Mus musculus with 3 samples.

Results

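Small leucine-rich proteoglycans are secreted core proteins that sit on collagen fibrils between the cells of connective tissue. The 10 genes described here, Dcn, Lum, Fmod, Ogn, Aspn, Omd, Kera, Bgn, Prelp and Epyc, were chosen by symbol, and all 10 were found among the 32285 gene rows of each matrix. Single cells of the soft palate, the muscular posterior part of the palate, were profiled at E14.5 in C57BL/6 mice. The libraries were 2 controls (control 1 and control 2) and 1 mutant labelled Osr2-Cre;Alk5fl/fl, in which Alk5 is Tgfbr1, the type I receptor of TGF-β. By the study's methods the controls were littermates carrying 1 or 2 floxed Tgfbr1 alleles, so the floxed allele was shared by all groups. Osr2-Cre recombines in the palatal mesenchyme and not in the myogenic cells, and embryos were taken without regard to sex.

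The leucine-rich repeats of these proteins bind collagen, and most members carry chondroitin, dermatan or keratan sulfate chains that set the spacing and thickness of fibrils. Decorin (Dcn) and biglycan (Bgn) also bind TGF-β, and asporin (Aspn) has been described as an inhibitor of TGF-β and BMP ligands. Osteomodulin (Omd) is known from bone, keratocan (Kera) from cornea and tendon, and prolargin (Prelp) and epiphycan (Epyc) from cartilage.

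The control 1, control 2 and mutant libraries kept 2058, 3689 and 7514 cells after filtering, and 1334, 2229 and 4187 of these were palatal mesenchyme by a gate on transcription factor and receptor genes (at least 2 UMIs, or unique transcript molecules, over Prrx1, Msx1, Pdgfra, Runx2, Twist2 and Twist1, and no other type's gate passed). No member entered a gate. The mesenchymal cells of control 1 were the deepest, with a median of 7965 UMIs against 5246 in control 2 and 5451 in the mutant. Levels are given in CPM, the UMIs of a gene scaled to the same total in every group of cells. Tgfbr1 itself was at 55.7 CPM in the mesenchyme of control 1, at 60.3 in control 2 and at 48.7 in the mutant. These libraries read the 3′ end of transcripts, and whether the counted end lies in the deleted part is not given in the sources used here, so the value does not check the label. Where 3 values stand together with no library named, they are those of control 1, of control 2 and then of the mutant. The libraries shared 18 to 49 cell barcodes in pairs. Myeloid cells, which should lack them, held the mesenchymal gate genes at a summed 266 CPM in control 1, 28.1 in control 2 and 143 for the mutant. The share of myeloid cells with such a UMI was 53.7%, 18.6% and 15.1%, at median depths of 10781, 5901 and 5206 UMIs.

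Members lay next to each other in the genome. By the GENCODE vM21 annotation of GRCm38, Dcn, Lum, Kera and Epyc followed each other on the plus strand of chromosome 10 between 97479609 and 97682454, with no other protein-coding gene between neighbours. Aspn, Omd and Ogn did so on chromosome 13 between 49544443 and 49624501, where gaps of 14896 and 15223 bases separated them. Prelp and Fmod were on chromosome 1, and Bgn was on the X chromosome. Cenpp, which encodes a centromere protein, overlaps Aspn, Omd and Ogn on the opposite strand. It was counted at 9.38 to 15.9 CPM in mesenchyme, and reads of the overlapping genes cannot be told apart if strand was not used in counting.

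The start regions of the chromosome 13 neighbours are shown because Aspn and Ogn were the members that were lower in dividing cells, with Omd between them. Each runs from 250 bases before to 50 bases after the RefSeq start on GRCm38.p6, 5′ to 3′ on the plus strand, and capitals mark TATAAA on either strand.
Aspn, chr13:49544193-49544492: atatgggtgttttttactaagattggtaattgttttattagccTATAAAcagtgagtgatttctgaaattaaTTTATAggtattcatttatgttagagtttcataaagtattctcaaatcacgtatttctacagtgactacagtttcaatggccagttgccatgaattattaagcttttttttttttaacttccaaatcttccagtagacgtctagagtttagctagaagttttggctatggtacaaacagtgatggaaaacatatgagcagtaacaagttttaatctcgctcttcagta
Omd, chr13:49582212-49582511: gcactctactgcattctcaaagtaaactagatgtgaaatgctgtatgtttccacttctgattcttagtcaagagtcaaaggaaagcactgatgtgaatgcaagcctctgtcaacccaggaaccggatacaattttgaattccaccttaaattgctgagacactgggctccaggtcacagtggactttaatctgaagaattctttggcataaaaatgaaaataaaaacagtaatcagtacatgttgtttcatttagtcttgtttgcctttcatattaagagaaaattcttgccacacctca
Ogn, chr13:49607765-49608064: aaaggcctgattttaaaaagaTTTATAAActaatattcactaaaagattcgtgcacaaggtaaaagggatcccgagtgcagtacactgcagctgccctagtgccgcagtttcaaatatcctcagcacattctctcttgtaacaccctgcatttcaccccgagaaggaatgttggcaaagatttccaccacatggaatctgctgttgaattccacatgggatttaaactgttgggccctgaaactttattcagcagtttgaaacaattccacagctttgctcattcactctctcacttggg
The letters TATAAA, read on both strands, were in the windows of Aspn and Ogn and in those of none of the other 6 members with a window in the table, against 13.6% of 32851 mouse windows of this length. In Aspn the matches began at bases -207 and -178 from the start, and in Ogn the matches on the 2 strands overlapped at bases -229 and -227, so neither lay close to the start. CAGAC, the letters of a SMAD-binding element, were in the windows of Prelp and Fmod and in 49.6% of all windows.

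Bgn, Aspn, Lum, Ogn and Dcn were the abundant members in palatal mesenchyme, Kera was intermediate, and Omd, Fmod, Prelp and Epyc were counted at under 10 CPM in every library. Each UMI stands for a molecule whatever the gene's length, so these levels can be set side by side, apart from differences in how well each 3′ end is captured. Bgn, the X-linked relative of decorin, was counted at 281 CPM in control 1 (exact Poisson 95% interval 272 to 291), 249.5 in control 2 (241 to 258) and 221 in the mutant (216 to 227). Lum, which encodes lumican, a regulator of fibril thickness, was at 279 in control 1, 163 in control 2 and 202 for the mutant. Aspn was at 196, 278 and 237 in the same order. The mutant lay between the controls for Lum and Aspn and below both for Bgn.

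Ogn, which encodes the bone and tendon proteoglycan osteoglycin, was at 119, 146 and 159.9 CPM in the same order. Dcn was at 145 (138 to 152), 75.3 (70.8 to 80.1) and 57.0 (54.3 to 59.8). The controls thus differed more from each other in Dcn than control 2 differed from the mutant. Dcn was also high in the myeloid cells of control 1, at 42.0 CPM against 6.24 in control 2 and 7.52 in the mutant. This was not particular to Dcn. Lum, Bgn, Aspn and Ogn were also highest in the myeloid cells of control 1, with Aspn at 60.0, 9.36 and 27.9. In mesenchyme Aspn and Ogn were lowest in control 1. Myeloid cells without a mesenchymal UMI held Dcn at 4.74 (1 UMI), 6.37 (3 UMIs) and 2.96 (2 UMIs). The part of free RNA in the mesenchymal values was not tested. Kera was at 14.1, 32.7 and 17.4 in mesenchyme, again with the mutant between the controls. The order of the levels was not the same in the 3 libraries: Bgn and Lum came first in control 1 and did not differ beyond their counting intervals, Aspn came first in control 2, and Aspn and then Bgn led in the mutant.

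Among the rare members, Omd was at 6.83, 6.50 and 7.98 CPM in the same order. Fmod, which encodes fibromodulin, a collagen fibril regulator of tendon, was at 3.21, 5.99 and 6.87. Prelp was at 3.46, 2.12 and 2.46 and Epyc at 1.48, 0.66 and 1.58. These rest on 39 to 237 UMIs a library for Omd and Fmod and on 9 to 73 for Prelp and Epyc, and their order changed between libraries.

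**Figure D1:**
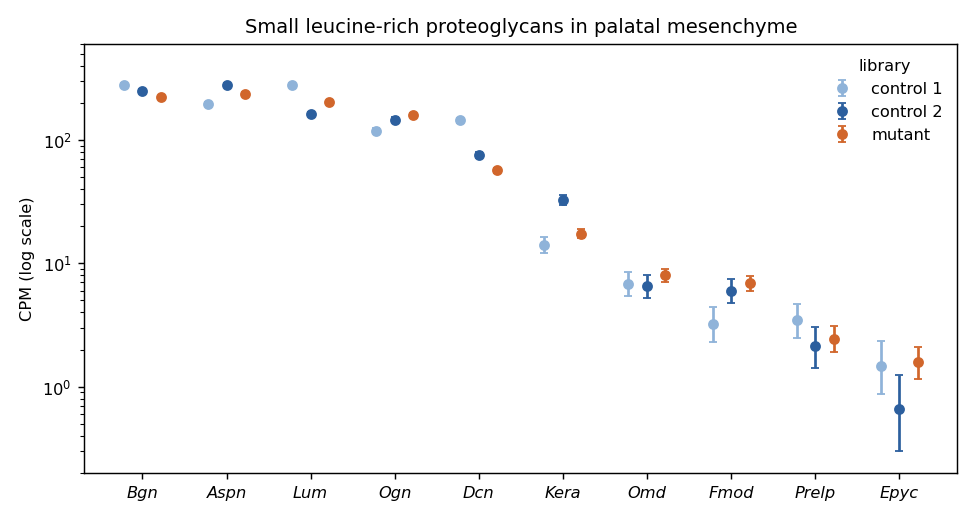
CPM of the 10 members in all palatal mesenchymal cells on a log scale, with a point for each library and bars for exact Poisson 95% intervals, which cover counting error only. Dcn is highest in control 1 (145), and no member has the mutant 1.5-fold away from both controls on the same side.

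The first question was whether loss of Tgfbr1 in the palatal mesenchyme went with a change in these matrix genes. No member was called in either direction in palatal mesenchyme. A gene was called when the mutant library was at least 1.5-fold above or below each control, among genes with a mean of at least 10 CPM over the 3 libraries. That left 6 members (Dcn, Lum, Ogn, Aspn, Kera and Bgn) and 8457 genes, of which 1.04% were called higher and 2.84% lower. With so few members and such low shares, the absence of a call was near the background. It does not show that the members were unchanged. With 1 mutant library there is no test, no p-value and no replicate check of the mutant, and the controls are the only measure of spread. Nothing in the labels says whether the libraries came from 1 embryo or several.

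Each member's log2 ratio, the mutant minus the mean of the controls, was set beside the gap between the controls. Dcn was the lowest at -0.87, within a gap of 0.94. Lum was at -0.08 with a gap of 0.78, and Aspn at 0.02 with a gap of 0.50. Kera was at -0.30 with the widest gap of the 6, 1.22. For these 4 members the mutant thus moved by less than the controls differed. Ogn was at 0.28 with a gap of 0.29. Bgn was the only tested member beyond its gap, at -0.26 against 0.17, lower in the mutant than in each control by under 1.5-fold. The median of the 6 was -0.17, beside -0.06 for all genes tested. Scaling by TMM factors raised every ratio by 0.13 and left Bgn at -0.13, inside its gap, and Ogn at 0.41, beyond its gap.

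The subtype gates held different shares of the mesenchyme in each library, so the levels were also averaged with each subtype given the same share in every library. Dcn was then at 142, 72.6 and 65.7 in control 1, control 2 and the mutant, and again no member was called, with Ogn at a ratio of 0.30 and a gap of 0.29. The perimysial gate held 17.7% of mesenchymal cells in control 1, 6.19% in control 2 and 5.76% for the mutant.

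The share of cells with a UMI was compared after thinning each cell to 2000 UMIs, which left out 5, 103 and 148 shallower mesenchymal cells. Dcn was seen in 20.1% of 1329 cells in control 1 (Clopper-Pearson 95% interval 18.0 to 22.3), 12.6% of 2126 in control 2 (11.2 to 14.0) and 9.90% of 4039 in the mutant (9.0 to 10.9). Ogn was seen in 19.5%, 20.5% and 25.6%. Aspn was seen in 24.2%, 31.7% and 32.5%, and Bgn in 40.3%, 35.5% and 32.5%. Dcn and Bgn were thus seen least often in the mutant and Ogn most often, while Aspn was alike in control 2 and the mutant. Without thinning the shares for Dcn were 48.5%, 26.5% and 23.0%. In thinned myeloid cells, which should lack these genes, Dcn was seen in 8.11% of 37 cells in control 1 (1.70 to 21.9). It was seen in 1.1% of 91 in control 2 (0.03 to 5.97) and 1.4% of 143 for the mutant (0.17 to 4.96). These were 3, 1 and 2 cells, and the intervals overlapped. Counting all members, 42.8% of thinned mesenchymal cells in control 1, 38.3% in control 2 and 41.1% for the mutant held UMIs of 2 or more of the 10 genes.

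Perimysial cells, the connective tissue cells around the muscle anlagen, were taken as cells with at least 2 UMIs summed over Hic1 and Ebf2. The study divides them into progenitors marked by Aldh1a2 and fibroblasts marked by Tbx15 or Smoc2. This gate does not separate them. All 7 check genes of this gate, among them Aldh1a2, Meox1 and Cxcl12, were higher inside it than in the other mesenchyme in each of the 3 libraries. No member was called there, against 2.75% of 8685 genes higher and 4.79% lower. For the 6 members tested this was again near the background and does not show that they were unchanged. Dcn was at 242 CPM in 236 cells of control 1, 70.6 in 138 cells of control 2 and 72.4 in 241 cells of the mutant. Control 1 was high and the other 2 libraries did not differ beyond their counting intervals. The gate genes also differed between libraries inside the gate, with Hic1 at 220, 168 and 96.2 CPM and Ebf2 at 121, 230 and 215. The part of this in the values of Dcn was not tested. At 2000 UMIs a cell, Dcn was seen in 37.0%, 11.9% and 11.9% of perimysial cells.

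Lum was at 234, 163 and 135 in the perimysial gate, a log2 ratio of -0.53 with a gap of 0.52 between the controls. Ogn was at 164, 183 and 209.7, a ratio of 0.27 beyond a gap of 0.16. Bgn differed little, at 297, 235 and 254, and Aspn was at 198, 249 and 188. Ogn was also higher in perimysial cells than in the rest of the mesenchyme in each library, by 1.51-fold, 1.29-fold and 1.35-fold. Fmod was too rare to be tested, at 3.48 (8 UMIs), 4.59 (5 UMIs) and 10.8 (25 UMIs).

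**Figure D2:**
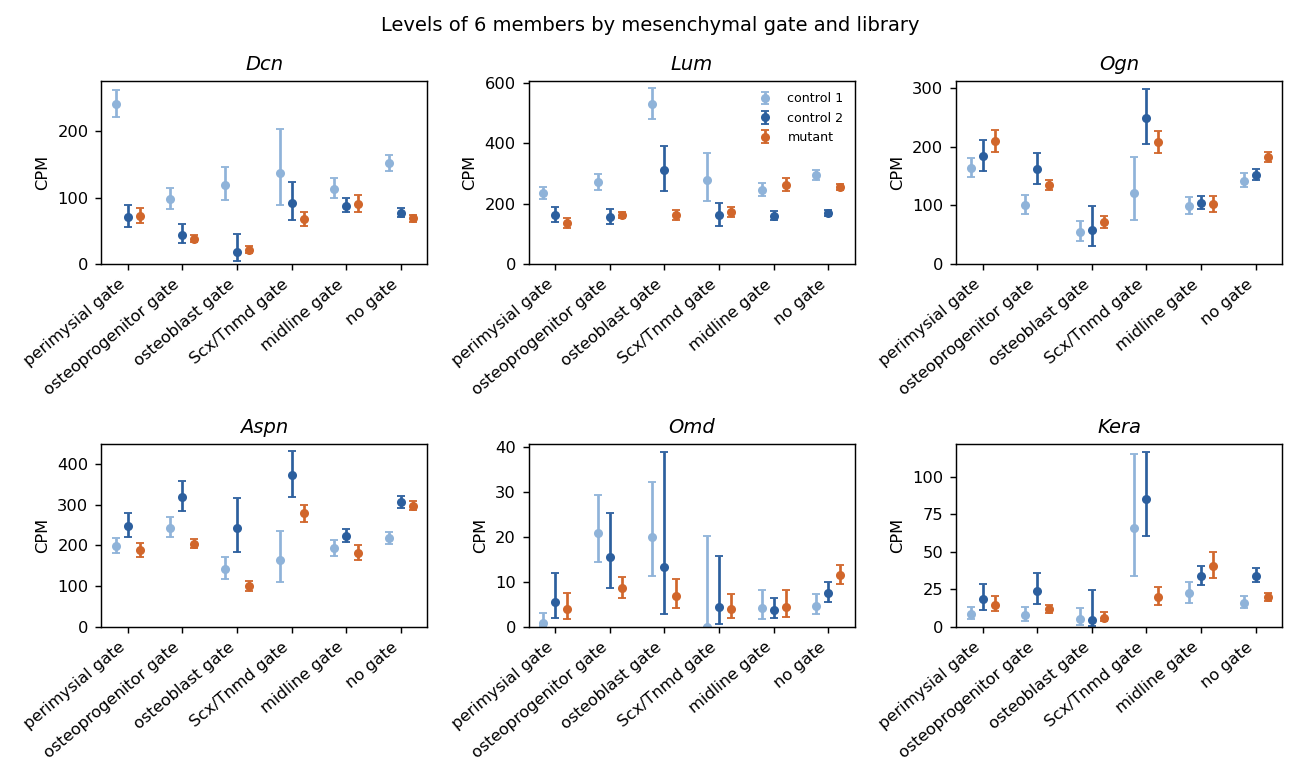
CPM of 6 members in 6 mesenchymal gates, with a point for each library and bars for exact Poisson 95% intervals. In the perimysial gate Dcn is high in control 1 alone (242), Omd is highest in the controls in the osteoprogenitor and osteoblast gates, and Kera in the Scx/Tnmd gate of both controls.

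Among the mesenchymal gates, Omd was highest in those of the bone lineage in both controls. The osteoprogenitor gate required a UMI of Sp7, a transcription factor that osteoblasts need. Of its check genes, Dlx5 and Alpl were higher inside it in all 3 libraries, while Spp1 and Phex were not. Omd was counted there at 21.0 CPM in control 1 (33 UMIs, interval 14.4 to 29.5), 15.4 in control 2 (15 UMIs, 8.64 to 25.5) and 8.61 in the mutant (56 UMIs, 6.50 to 11.2). Against the other mesenchyme of the same library this was 4.44-fold, 2.65-fold and 1.10-fold higher. The controls were high and the mutant was low, and the interval of the mutant overlapped that of control 2 and not that of control 1. Omd was the only 1 of 7 members tested that was called lower in this gate, with a log2 ratio of -1.06 and a gap of 0.44, and none was called higher. Of 8341 genes tested, 3.0% were called lower and 1.57% higher. At a threshold of 2-fold Omd was not called. Prelp, too rare to be tested, was also lower in the mutant here, at 10.8 (17 UMIs), 6.17 (6 UMIs) and 3.23 (21 UMIs) CPM. Its ratio was -1.34 with a gap of 0.81. It was 4.57-fold, 3.41-fold and 1.44-fold above the other mesenchyme.

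The osteoprogenitor gate held 9.82% of the mesenchyme in control 1, 4.76% in control 2 and 13.6% for the mutant, and the part of this in the values of Omd was not tested. In mesenchymal cells outside every gate Omd went the other way, at 4.70, 7.40 and 11.5 CPM. In the perimysial gate it was at 0.87, 5.50 and 3.90.

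In the osteoblast gate (at least 4 UMIs of Ibsp and Ifitm5, which encode bone matrix and osteoblast membrane proteins), Lum was at 531 CPM in 55 cells of control 1, 310.4 in 18 cells of control 2 and 162 in 213 cells of the mutant. This was 2.03-fold and 1.93-fold above the other mesenchyme in the controls and 0.79 times it in the mutant. Ogn was low in this gate in every library, at 54.8, 57.6 and 71.7. Of its 6 check genes only Alpl was higher inside it in all 3 libraries, so it is named by its gate genes. With 18 cells in control 2 the gate was under the 50 cells set for a comparison of mutant and controls.

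Kera was highest in the controls in cells with at least 2 UMIs summed over Scx and Tnmd, genes of the tendon lineage. Most of these UMIs were of Scx, at 181, 342 and 326 CPM inside the gate against 5.49, 8.73 and 3.59 for Tnmd. Kera was at 65.9 CPM in 15 cells of control 1 (12 UMIs), 85.1 in 55 cells of control 2 (39 UMIs) and 19.9 in 254 cells of the mutant (50 UMIs). Inside the gate it was 4.96-fold, 2.75-fold and 1.16-fold above the other mesenchyme. Both controls lay above the mutant with intervals that did not overlap it (34.1 to 115 and 60.5 to 116 against 14.8 to 26.3). The cells of the gate were too few in control 1 for a call, and of its check genes only Egr2 was higher in all 3 libraries, so it is named by its gate genes. Fmod was also higher in this gate than in the other mesenchyme in all 3 libraries, at 11 (2 UMIs), 15.3 (7 UMIs) and 18.7 (47 UMIs) CPM.

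In the midline gate (Lsp1, Wnt16 and Sostdc1) Ogn was lower than in the other mesenchyme in each library, at 98.6, 104 and 102. In the same gate Kera was at 22.2, 33.7 and 40.5. The Msx gate (Msx1 and Msx2) set the controls apart, with Ogn at 41.3, 179 and 231 and Aspn at 89.2, 238 and 345, so control 1 was the low library for both genes. In the Tfap2b/Eya4 gate Dcn was at 123, 69.4 and 47.1 and Lum at 169, 140.5 and 188.

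Aspn and Ogn, which flank Omd on chromosome 13, were lower in dividing than in other mesenchymal cells in all 3 libraries. A dividing cell held UMIs of at least 3 of 7 genes of late cell cycle (Mki67, Top2a, Cdk1, Ccnb1, Cenpf, Birc5 and Ube2c). These cells made up 36.4%, 35.3% and 32.1% of the mesenchyme in control 1, control 2 and the mutant. Aspn was at 146 CPM in dividing and 240.5 in other cells of control 1, at 181 and 357 in control 2, and at 162 and 301 in the mutant. Ogn was at 83.7 and 150.3 in control 1, 107 and 177 in control 2, and 117 and 196 in the mutant. The other cells were above the dividing cells by 1.65-fold, 1.97-fold and 1.86-fold for Aspn and by 1.79-fold, 1.65-fold and 1.68-fold for Ogn.

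By the rule of at least 1.5-fold in every library, 2 of 6 members tested were lower in dividing cells and 0 were higher. Over all 8457 genes tested 0.0709% (6 genes) were lower and 3.70% higher, with no test across cells. Beside Aspn and Ogn the 6 were Tmem150a, Nupr1, Selenop and Fkbp11, named because they complete the count. Omd, too rare to be tested, was at 4.74 and 8.68 CPM in dividing and other cells of control 1, 3.75 and 8.73 in control 2, and 5.49 and 10.1 in the mutant. After thinning Omd was 1.07-fold, 1.52-fold and 2.23-fold higher in the other cells, and in ungated cells alone 0.983 times, 2.79-fold and 1.57-fold, so it was not lower in dividing cells of control 1 there.

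The other abundant members differed less. Dcn was 1.35-fold, 1.24-fold and 1.06-fold higher in the other cells than in dividing cells, and Lum 1.11-fold, 1.24-fold and 1.17-fold. Bgn was 1.07-fold and 1.04-fold higher in the controls and 0.952 times in the mutant. Dividing cells were deeper, with medians of 10678.5, 6655 and 7363.5 UMIs against 7254.5, 4821 and 4680. After thinning to 2000 UMIs Ogn was 1.92-fold, 1.86-fold and 2.47-fold higher in the other cells, and Aspn 1.42-fold, 2.11-fold and 2.47-fold, so Aspn missed the rule in control 1. Thinned cells kept the dividing label called on all their UMIs, so the part of depth in that label was not tested. In ungated cells alone Aspn passed and Ogn missed the rule in control 1, at 1.42-fold.

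**Figure D3:**
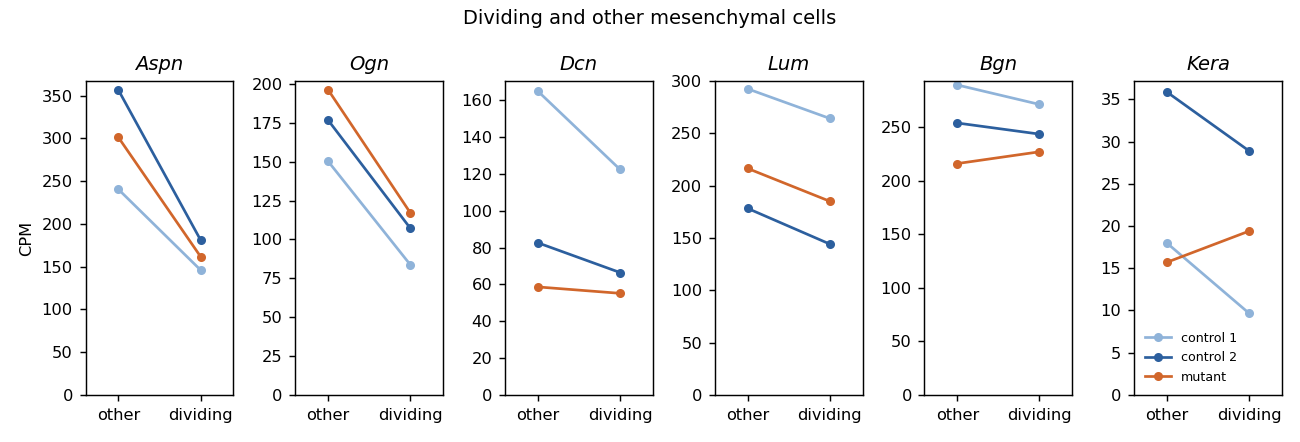
CPM of 6 members in other and in dividing mesenchymal cells, with a line for each library. Aspn and Ogn fall in all 3 libraries (Aspn 240.5 to 146 in control 1), while Bgn stays nearly level.

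Aspn was seen more often in cells with an Ogn UMI than in cells without one. Among mesenchymal cells thinned to 2000 UMIs, Aspn was seen in 34.7% of cells with an Ogn UMI and 21.6% of those without in control 1. The shares were 47.8% and 27.6% in control 2 and 45.6% and 28.0% in the mutant. The odds ratios were 1.93, 2.4 and 2.15, and this pair had the highest lowest value of the 15 pairs among Dcn, Lum, Ogn, Aspn, Bgn and Kera. Dcn with Kera had 1.88 to 2.81, from 16 to 28 cells with both, and Dcn with Lum 1.46 to 2.01. Each of these pairs lies within a chromosome, but only Dcn and Lum are adjacent. Lum and Kera, also adjacent, had 0.979 to 1.29, and the pairs from different chromosomes had 0.798 to 1.99. These are descriptions over cells, which are not replicates.

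Most members tested were higher in mesenchyme than in the other large cell types, with decorin as the exception. Of the 6 tested members 5 were higher in mesenchyme than in each of 4 types (epithelial, endothelial, myeloid and myogenic) in every library, against 13.7% of all genes. The exception was Dcn, which was higher in epithelial cells than in mesenchyme in the mutant alone. The other 4 members were too rare for this comparison. Against myogenic cells, which carry no Osr2-Cre recombination, 6 of 6 tested members were at least 1.5-fold higher in mesenchyme in every library, as were 28.3% of genes. Bgn and Ogn had the most signal in myogenic cells, Bgn at 62.6, 43.7 and 31.7 CPM and Ogn at 43.1, 37.1 and 40.1. In those myogenic cells without a UMI of the mesenchymal gate genes Ogn was at 28.4, 42.4 and 37.4.

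Dcn in mesenchyme was 1.37-fold and 1.09-fold its level in epithelial cells in control 1 and control 2, and 0.870 times in the mutant. Dcn was also high in 17 and 16 neuronal cells of the controls, at 283 (47 UMIs) and 89.6 (16 UMIs) against 9.47 in 309 cells of the mutant, and in 12 mural cells of control 1, at 132. In the 5, 6 and 237 neuronal cells without a mesenchymal UMI, 0, 1 and 1 UMIs of Dcn were counted. Epithelial cells held at least 4 UMIs of at least 3 of Epcam, Cdh1, Krt5, Krt14, Krt15, Perp, Esrp1 and Cldn7. Dcn was at 106 CPM in epithelial cells of control 1, 68.9 in control 2 and 65.5 in the mutant. Between 66.2% and 71.3% of these cells held a UMI of the mesenchymal gate genes, so the 74, 108 and 187 epithelial cells with none were read alone. Dcn was at 94.1 (74.8 to 117), 63.0 (47.1 to 82.6) and 79.2 (64.0 to 96.8) in them. In the same cells Lum was at 29.1, 12.1 and 12.5, Bgn at 32.5, 24.2 and 14.2, Aspn at 5.81, 19.4 and 13.3 and Ogn at 6.97, 7.27 and 5.0. The other abundant members thus fell to a small part of their mesenchymal level in those cells, and Dcn did not. Col1a1, which was not a gate gene, was still at 119, 177 and 121 CPM in those cells. It was seen in 64.9%, 58.3% and 32.1% of them. In mesenchyme Col1a1 was at 1623, 1708 and 1734 CPM.

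The ratio of Dcn to Lum UMIs was 0.519 in mesenchyme and 3.24 in these epithelial cells in control 1 (81 and 25 UMIs, interval 2.05 to 5.30). It was 0.462 and 5.20 in control 2 (52 and 10 UMIs, 2.61 to 11.5) and 0.282 and 6.33 in the mutant (95 and 15 UMIs, 3.65 to 11.8). Dcn was seen in 29.7% of the 74 cells, 26.9% of the 108 and 20.3% of the 187. The median depth was 10997.5, 6575.5 and 5380 UMIs, and 6, 5 and 12 cells held 3 or more Dcn UMIs, up to 14 in a cell. Among other cells without a mesenchymal UMI, Dcn was at 4.74, 6.37 and 2.96 CPM in myeloid cells. It was at 52.1 (9 UMIs), 13.7 (1 UMI) and 78.4 (6 UMIs) in erythroid cells, and at 63.6 (5 UMIs) in neutrophils, which were gated in control 1 alone. The erythroid level in the mutant was thus near the epithelial one, on few UMIs, and the part of free RNA in the epithelial values was not tested.

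Within these epithelial cells the level of Krt17, a keratin of epithelial appendages and stressed epithelium, was lower in cells with a Dcn UMI than in those without. It was at 505 and 1030 CPM in control 1, 639 and 1786 in control 2, and 487 and 2401 in the mutant. The basal keratins did not move together. Krt14 was lower in cells with Dcn, at 588 and 775, 760 and 1369, and 761 and 1712. Krt5 was at 418 and 328, 240.3 and 258, and 159.6 and 192.5. Krt15 was higher in cells with Dcn, at 1079.6 and 716, 614 and 473, and 577 and 488. Trp63, the basal epithelial transcription factor, was at 130.4 and 82.0, 98.7 and 79.4, and 106 and 53.4. Epcam was at 368 and 358, 249 and 593, and 426 and 658. It was thus lower in cells with Dcn in control 2 and the mutant and nearly level in control 1. The median depth of cells with and without a Dcn UMI was 11620.5 and 9418 UMIs, 6977 and 6390, and 5118.5 and 5507. These genes were chosen after their values were seen, and Epcam, Krt5, Krt14 and Krt15 were part of the gate.

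**Figure D4:**
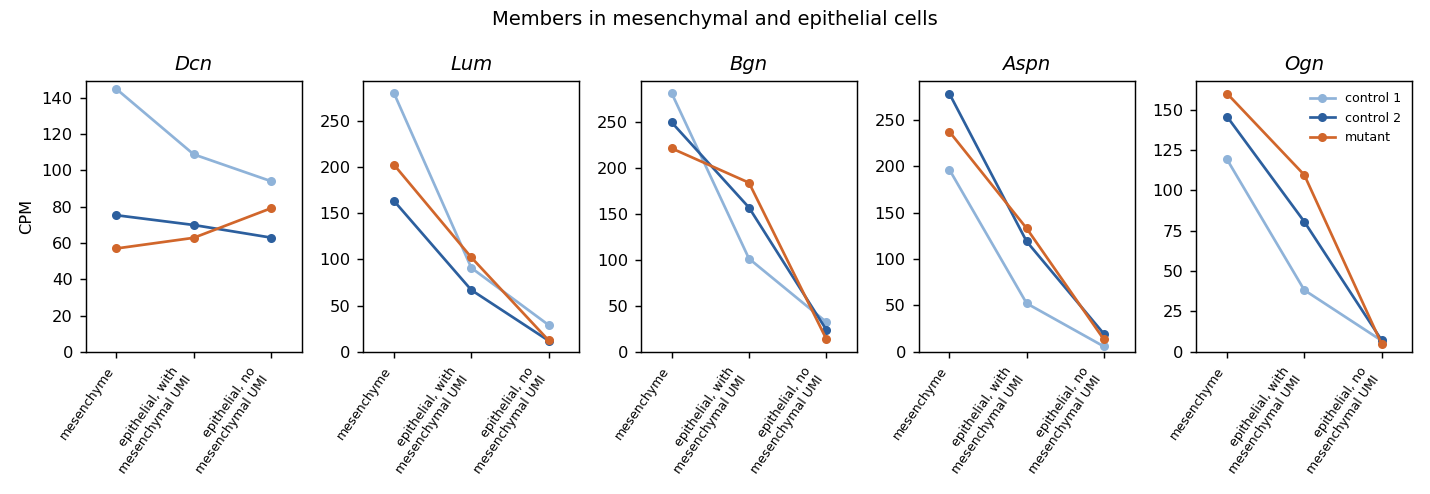
CPM of the 5 abundant members in mesenchymal cells and in epithelial cells with or without a UMI of the mesenchymal gate genes, with a line for each library. Dcn stays between 57.0 and 145 across the 3 groups of cells, while Lum, Bgn, Aspn and Ogn fall to 32.5 or less in epithelial cells without a mesenchymal UMI.

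Prelp was highest in chondrocyte-gated cells (at least 10 UMIs of Acan, Matn1, Col9a1, Col9a3, Cnmd, Snorc, Hapln1 and Col2a1), of which there were 11, 7 and 127. Prelp was at 84.1 CPM in control 1 (9 UMIs, interval 38.4 to 159.6), 114 in control 2 (11 UMIs, 56.7 to 203) and 29.6 in the mutant (40 UMIs, 21.1 to 40.3). In mesenchyme it was at 3.46 or less. Epyc was at 98.4 in the mutant (133 UMIs). In the controls 0 UMIs were counted, with upper interval limits of 34.5 CPM in control 1 and 38.1 in control 2. The summed level of the 8 markers was 1812, 1228 and 5386 CPM, so the gated cells of the controls carried less of the cartilage genes. Its part in the difference was not tested.

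Bgn was also counted in cells of the vessels. In mural cells, the pericytes and smooth muscle of vessels, it was at 359 CPM in 12 cells of control 1, 429 in 4 cells of control 2 and 367 in 25 cells of the mutant, above the mesenchyme of each library. Only in the mutant did the counting interval (284 to 466) lie wholly above the mesenchymal level. In endothelial cells Bgn was at 166, 53.3 and 122, and in those without a mesenchymal UMI at 113, 47.9 and 113. Dcn in the same endothelial cells was at 32.1, 3.54 and 1.65.

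**Figure D5:**
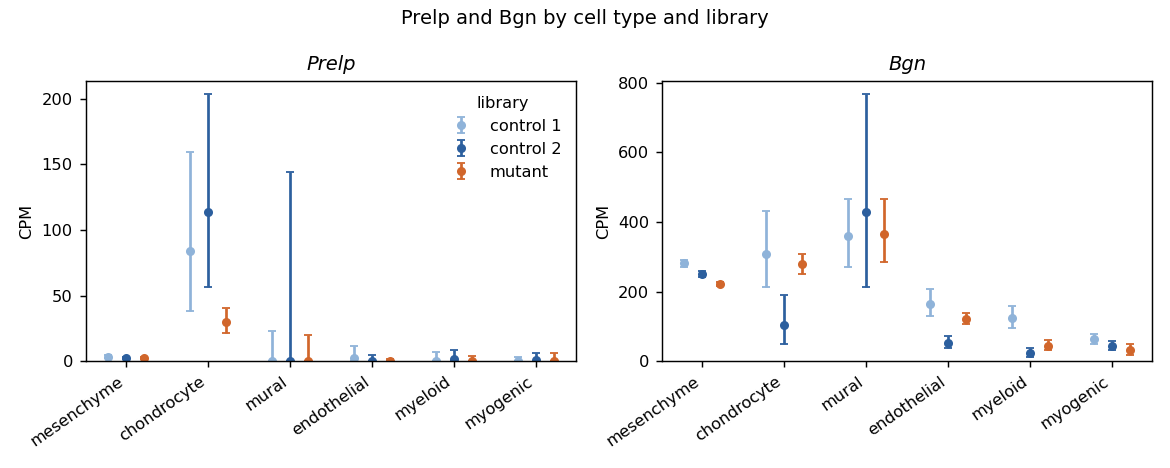
CPM of Prelp and Bgn by cell type, with a point for each library and bars for exact Poisson 95% intervals. Prelp stands out in the chondrocyte gate (29.6 to 114), and Bgn is present in mural, chondrocyte, mesenchymal and endothelial cells.

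Genes that act with these proteoglycans were read from 3 lists, beside 1.04% of all 8457 genes called higher, 2.84% called lower and a median log2 ratio of -0.06. Of 8 other small leucine-rich proteoglycans 1 was abundant enough to be tested, and it was called lower. This was Tsku, which encodes tsukushi, a secreted protein that binds BMP and TGF-β ligands. It was at 26.4 CPM in control 1, 39.5 in control 2 and 9.50 for the mutant, a log2 ratio of -1.77 with a gap of 0.58 between the controls. Both controls lay above the mutant. The next in this list, Chadl at 7.98, 5.55 and 5.39 and Podn at 6.01, 7.75 and 7.58, were under the limit for testing.

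Of 20 enzymes that build, sulfate or process the glycosaminoglycan chains and core proteins 15 were tested, and 0 were called in either direction. Their median log2 ratio was -0.14. The 3 most abundant were Pcolce, an enhancer of procollagen processing, at 69.5, 61.6 and 68.4, Bmp1, the procollagen C-proteinase, at 66.3, 57.0 and 60.4, and Chsy1, a chondroitin synthase, at 35.1, 50.8 and 47.9. None of these stood outside the gap between the controls. Some less abundant tested enzymes of the list did, mostly below both controls, with log2 ratios down to -0.55, and without reaching the 1.5-fold rule. Csgalnact1, too rare to be tested, went the other way, at 4.03, 6.58 and 11.4 CPM. Its ratio was 1.15 with a gap of 0.71, and the mutant was over 1.5-fold above each control.

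Of 12 collagens and collagen partners 11 were tested, with 1 called higher and 1 lower and a median of -0.01. Col12a1, a fibril-associated collagen, was at 151, 189 and 300.4 CPM, a ratio of 0.83 with a gap of 0.32. Lox, the lysyl oxidase that cross-links collagen, was at 163, 155 and 89.0, a ratio of -0.84 with a gap of 0.07. Col1a1 was nearly level at 1623, 1708 and 1734, while Col1a2 was at 1131, 1291 and 1587 and Col3a1 at 1117, 879 and 739. These 3 collagens were above every member in each library, while Col5a1 (93.0, 95.1 and 93.1) and Col6a1 (119.5, 132 and 103) were below Bgn, Lum and Aspn.

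The genes with the most similar pattern were found by Pearson's r of log2(CPM + 5) over 7 cell types in 3 libraries, which gives 21 points that share libraries and depth. The types were those with at least 50 cells in each library. Outside the mesenchyme only epithelial and myogenic cells met this, so most of the types were groups of mesenchymal cells. For Aspn the most similar genes were Col1a2 (r = 0.98), Cdh11 (0.97) and Tmem256 (0.97). For Lum they were Ifitm2, Cd248 and Rcn3 (0.97, 0.97 and 0.96), and for Bgn Scarf2, Thra and Samd14 (0.98, 0.97 and 0.97). The values were lower for Dcn, whose nearest genes included Cnpy2 and Ctxn1 (0.95 and 0.92), and for Ogn, with Serf2, Arhgap20 and Sh3gl1 (0.90, 0.90 and 0.90). Among the members themselves, Lum and Bgn had the highest value, 0.92, and Dcn and Ogn the lowest, 0.51.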

How the data were processed

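Cells of 3 libraries were profiled with 10x Genomics 3′ chemistry. The authors aligned reads and deposited raw UMI counts per gene and barcode, and the deposited counts were used as they are. Cell Ranger 4.0.0 is named in the file headers and 3.1.0 in the submitters' processing notes, with the mm10 build. The gene annotation is not given in the sources used here. Barcodes with under 500 genes or over 10% mitochondrial UMIs were removed, as were the highest Scrublet scores (scanpy 1.11.5) at a rate that grew with the barcodes loaded, since the caller's own threshold marked 1, 1 and 0 barcodes. This left 2058, 3689 and 7514 cells from 22624711, 27814907 and 63505144 UMIs. Cells were gated by UMIs of marker genes. Thresholds were set on the distributions of those genes without reading the members. Cells that passed several gates (34, 12 and 85) or none (159, 734 and 1621) were left out. A mesenchymal cell that passed more than 1 subtype gate was put in the first of a fixed order. The order was osteoblast, osteoprogenitor, perimysial, Scx/Tnmd, Msx, Tfap2b/Eya4 and midline. Such cells were 16.0%, 8.70% and 18.9% of the mesenchyme, and their part in the values by gate was not tested. UMIs were summed per type and library and scaled to CPM (numpy 2.4.6, scipy 1.17.1). A count of 0 was set to 3 UMIs for ratios. Intervals are 95% Poisson or Clopper-Pearson and cover counting error only. TMM factors came from edgeR 4.0.16. Members, lists and the genes named (all members, list genes called or among the 3 most abundant, and the 3 most similar genes) were chosen with earlier results of these data known. Some genes that these rules name are not reported here.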

Additional observations from a re-analysis of the deposited data

Results flagged for a closer look

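Some members moved one way in one group of cells and the other way in another. These differences were not tested, since there was 1 mutant library. Fmod had a log2 ratio of mutant to controls of 1.44 in the perimysial gate, at 3.48 CPM in control 1, 4.59 in control 2 and 10.8 for the mutant. In epithelial cells its ratio was 1.29, at 2.37 (9 UMIs), 3.74 (20 UMIs) and 7.28 (54 UMIs). In the epithelial cells without a mesenchymal UMI Fmod was at 4.65 (4 UMIs), 1.21 (1 UMI) and 3.33 (4 UMIs). The mutant lay between the controls there, so the rise was not seen in those cells, on few UMIs. In the midline gate the ratio was -1.49, at 2.58 (5 UMIs), 5.56 (18 UMIs) and 1.35 (3 UMIs). Omd had a ratio of -1.06 in the osteoprogenitor gate and of 0.96 in mesenchymal cells outside every gate, where it rested on 19, 45 and 114 UMIs. For each of these ratios the mutant lay on one side of both controls. The ratios were picked out by their values, so this adds no support. All but that of Omd in the osteoprogenitor gate were under the mean of 10 CPM set for testing.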

How the results depend on the processing

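With 1 mutant library and 2 controls, each call rests on few libraries, and counts of members called moved with the choice of control. No paired analysis was possible because the mutant is 1 library and no test over samples was made. In palatal mesenchyme 0 members were called lower with both controls, 1 without control 1 (Kera) and 1 without control 2 (Dcn), so leaving out a control gave 1 to 1. In the perimysial gate 0 were called in either direction. Leaving out control 2 gave 1 higher (Kera) and 2 lower (Dcn and Lum) and leaving out control 1 gave 0, so the ranges were 0 to 1 and 0 to 2. Leaving out dividing cells gave 1 higher (Kera), as did testing genes of at least 1 CPM (Fmod). In the osteoprogenitor gate 1 member, Omd, was called lower. Alternatives for this gate and for dividing cells were chosen after seeing the data. The count was 2 with 1 more UMI in every gate, 2 among genes of at least 1 CPM (Omd and Prelp), 0 at 2-fold, and 3 to 3 without either control. The log2 ratio of Omd ranged from -1.28 to -0.83, and it was not called with gates set on thinned cells. Of 2 members lower in dividing cells, 1 was called with thinned cells (Ogn) and 1 in ungated cells only (Aspn). The share of all genes called is not given here for any of these alternatives, so their counts lack a background. With 1 control left out, a gene had to pass against 1 control only. With gates on thinned cells the ratio of Lum in the perimysial gate was 0.96, over 16, 19 and 34 cells. The causes were not tested.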
